A study of Homo sapiens with 9 samples.

Results

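The human Wnt ligands, their Frizzled receptors and co-receptors, the secreted Wnt antagonists, the R-spondins, and the TCF/LEF and AXIN genes were followed in OVCA433 ovarian cancer cells after knockdown of MPZL3, a predicted cell adhesion molecule. Members were taken by gene symbol alone from the protein-coding genes of the count table, which gave 53 genes of 58676 in all, 19821 of them protein-coding. They were 19 Wnt ligands, 10 Frizzled receptors, 5 co-receptors and alternative receptors (LRP5, LRP6, ROR1, ROR2 and RYK), 9 secreted antagonists of the DKK, SFRP and WIF1 families, 4 R-spondins, 4 TCF/LEF factors and 2 AXIN scaffolds. SFRP3 was not found under that symbol. Of the 53 genes, 32 reached 10 counts in at least 3 of the 9 libraries, and 21 stayed below that minimum.

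OVCA433 is an established line labelled as ovarian serous adenocarcinoma and was grown in RPMI medium with serum. RNA-seq was carried out on 3 groups of 3 libraries (replicates A, B and C) that share this line and medium. The control group carried the shRNA control vector and is labelled wild type, and the other groups carried shRNA #1 or shRNA #3 against MPZL3 and are labelled as knockdown. The study does not state that the knockdown cells were single clones. The study's methods call the 3 libraries of a group biological replicates. Neither they nor the labels say whether these were separate transductions, so p-values weigh differences against the spread between these libraries alone. Where both shRNAs are pooled, the 6 knockdown libraries count as 6 replicates of 1 arm, though they carry only 2 shRNAs. A difference between the shRNAs then adds to the spread.

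In the Wnt pathway, secreted Wnt proteins bind Frizzled receptors together with LRP5 or LRP6, which frees beta-catenin from a destruction complex built on AXIN and lets it act with TCF/LEF factors on target genes. Other ligands, WNT5A and WNT5B among them, are best known for acting without beta-catenin through Frizzled, ROR and RYK receptors on cell polarity and movement. WIF1, SFRP proteins and DKK proteins such as DKK1 are secreted and restrain the signal. R-spondins strengthen it by keeping Frizzled receptors at the surface.

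Library totals ran from 16850854 to 23890191 counts, and the 53 genes together took between 0.121% and 0.142% of them. MPZL3 itself was at 19.5 ± 3.42 CPM (a gene's counts scaled to a common library size by the TMM method; SD, n = 3) in control libraries, 1.88 ± 0.0926 with shRNA #1 and 1.57 ± 0.514 with shRNA #3, a pooled log2 fold change of -3.49. The ovarian serous and epithelial markers moved with knockdown: of 12 tested, 8 were lower and 1 (PAX8) was higher, and their summed CPM was 11933 to 14889 in control libraries against 5425 to 6948 with shRNA #1 and 5399 to 6096 with shRNA #3. That sum is carried by keratins, and CDH1 (E-cadherin) went from 275 ± 5.48 CPM to 0.112 ± 0.0816 and 0.148 ± 0.183, and EPCAM from 403 ± 23.6 to 5.48 ± 1.25 and 8.93 ± 1.34. WT1 was at 0 in every library. All 6 fibroblast markers tested of 10 listed were higher, with summed CPM of 19.0 to 23.1 in control libraries, 110 to 447 with shRNA #1 and 507 to 876 with shRNA #3, while DCN, a defining fibroblast gene, was at 0 throughout and PDGFRA, THY1 and FAP were below the filter. Endothelial markers summed to 1.05 to 1.69, 4.91 to 7.42 and 6.20 to 8.56 CPM in the same order, with 2 of 4 tested genes (CDH5 and KDR) called higher. Mesothelial markers summed to 77.2 to 96.3, 43.7 to 73.6 and 127 to 149 CPM, with members moving in different directions: UPK3B went from 57.2 ± 11.6 CPM to 0.541 ± 0.149 and 0.746 ± 0.337, BNC1 rose with both hairpins, and PDPN was at 12.6 ± 1.20, 0.270 ± 0.175 and 78.1 ± 5.14. Leukocyte markers summed to at most 1.35 CPM in any library. The part of these marker changes in the Wnt results was not tested.

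Both hairpins together were compared with control, as the study grouped them, and each hairpin was also compared with control on its own. A gene was called when edgeR's quasi-likelihood test gave a Benjamini-Hochberg adjusted p below 0.05 over all 15975 genes tested and the fold change was at least 2-fold, that is 1 on the log2 scale. All tested genes had a median log2 fold change within 0.009 of 0 in each comparison. With both hairpins pooled, WNT5B, FZD4, DKK3, LEF1 and AXIN2 were called higher, 5 of the 32 members tested, where 7.26% of all tested genes were called higher. WNT7B, WNT10A, WNT7A, WNT9A, WNT6, FZD7 and FZD3 were called lower, 7 of 32, where 7.4% of all tested genes were. WNT10A, WNT7A and WNT6 reached 10 counts in control libraries alone, so these 3 genes could enter the test only by being high there. Their calls, here and with each hairpin below, are descriptions.

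With shRNA #1 against control, 6 members were called higher (the pooled 5 and WNT5A), against 7.76% of all genes, and 7 lower (the pooled list with SFRP1 in place of FZD7), against 8.55% of all genes. With shRNA #3, 4 members were called higher (WNT5B, DKK3, LEF1 and AXIN2), against 7.46% of all genes, and 8 lower (the pooled 7 and WNT5A), against 7.83% of all genes. The hairpins share their control libraries, so their comparisons are not independent of each other. Between the hairpins, with shRNA #3 against shRNA #1, 1 member (SFRP1) was called higher, against 2.22% of all genes, and 2 members (WNT5A and FZD8) were called lower, against 1.72%. In all, 15 of the 32 members were called in at least 1 of the 4 comparisons and 17 in none. The same share was not counted over all tested genes, so these 2 numbers describe the members alone.

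**Figure D1:**
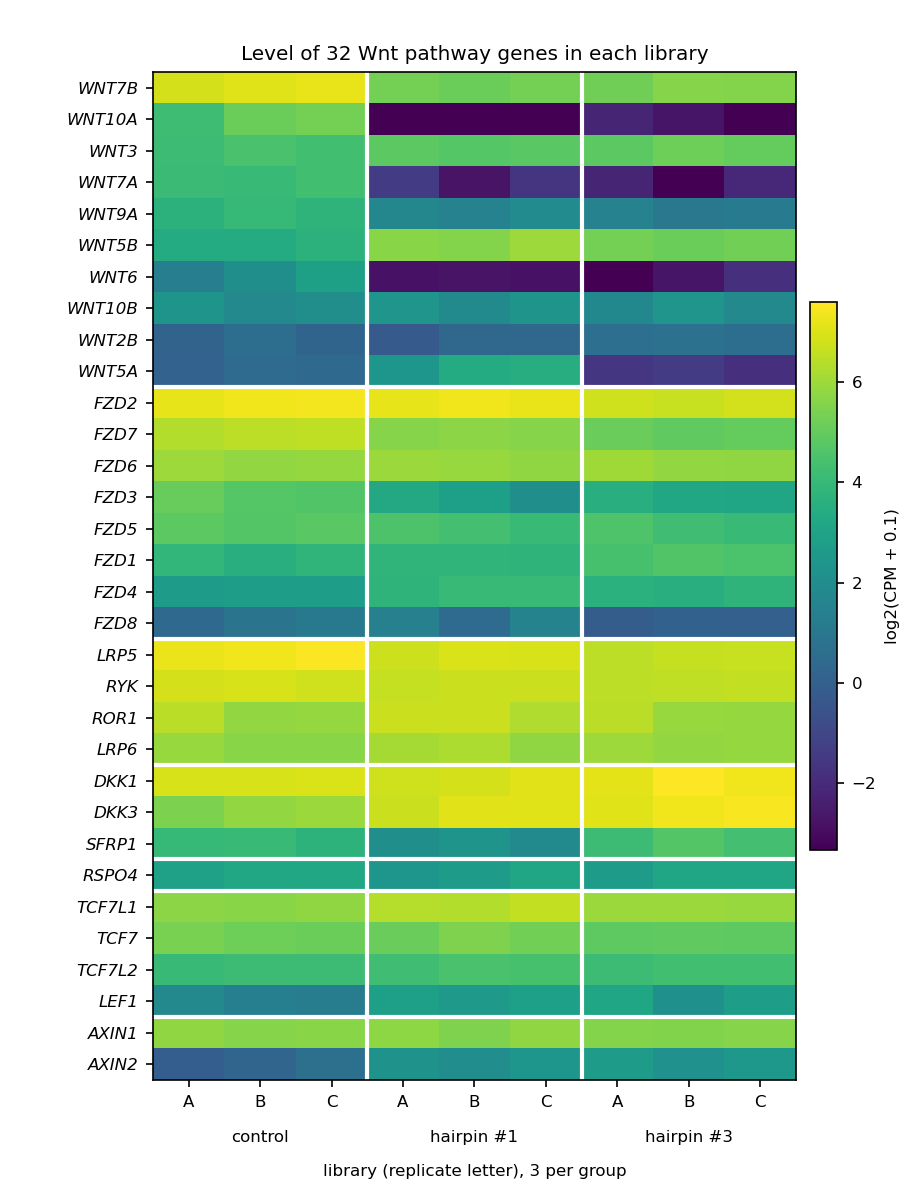
Level of the 32 members that reached 10 counts in at least 3 libraries, as log2(CPM + 0.1), in each of the 9 libraries; white lines part the groups and the roles (ligands, Frizzled receptors, co-receptors, antagonists, R-spondin, TCF/LEF, AXIN). WNT10A, WNT7A and WNT6 are dark in all 6 knockdown libraries, WNT5B brightens in them, and WNT5A is brightest with shRNA #1 and darkest with shRNA #3.

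Promoter sequences are shown for 4 ligands that fell and for WNT5B and LEF1, which rose, since these members moved together with both hairpins. Each window covers 250 bases before to 50 after a RefSeq gene start on GRCh38.p14, is written in the direction of transcription and has its CpG dinucleotides, the sites of DNA methylation, in capitals. WNT6 and WNT10A stand next to each other on chromosome 2, in the same direction, with 6129 bases and no coding gene between them.
WNT6 (chr2:218859555-218859854, plus strand): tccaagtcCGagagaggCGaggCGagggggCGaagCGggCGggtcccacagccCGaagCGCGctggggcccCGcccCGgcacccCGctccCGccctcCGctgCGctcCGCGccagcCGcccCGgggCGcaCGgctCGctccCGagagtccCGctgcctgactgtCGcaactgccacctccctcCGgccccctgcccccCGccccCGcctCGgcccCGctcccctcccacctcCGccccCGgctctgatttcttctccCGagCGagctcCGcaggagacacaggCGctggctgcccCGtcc
WNT10A (chr2:218880602-218880901, plus strand): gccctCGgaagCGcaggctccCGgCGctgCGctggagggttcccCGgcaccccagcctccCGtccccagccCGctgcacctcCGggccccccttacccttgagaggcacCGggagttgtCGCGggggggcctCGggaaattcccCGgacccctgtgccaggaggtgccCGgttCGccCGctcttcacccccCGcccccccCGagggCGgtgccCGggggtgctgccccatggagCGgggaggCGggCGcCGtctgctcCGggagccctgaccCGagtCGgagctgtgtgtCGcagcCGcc
WNT7A (chr3:13880022-13880321, minus strand): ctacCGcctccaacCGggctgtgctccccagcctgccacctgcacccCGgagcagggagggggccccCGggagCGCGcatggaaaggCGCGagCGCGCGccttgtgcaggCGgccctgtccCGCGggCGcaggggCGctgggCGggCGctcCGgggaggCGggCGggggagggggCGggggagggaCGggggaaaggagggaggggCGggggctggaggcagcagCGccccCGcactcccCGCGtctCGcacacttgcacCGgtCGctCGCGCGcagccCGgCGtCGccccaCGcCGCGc
WNT9A (chr1:227947883-227948182, minus strand): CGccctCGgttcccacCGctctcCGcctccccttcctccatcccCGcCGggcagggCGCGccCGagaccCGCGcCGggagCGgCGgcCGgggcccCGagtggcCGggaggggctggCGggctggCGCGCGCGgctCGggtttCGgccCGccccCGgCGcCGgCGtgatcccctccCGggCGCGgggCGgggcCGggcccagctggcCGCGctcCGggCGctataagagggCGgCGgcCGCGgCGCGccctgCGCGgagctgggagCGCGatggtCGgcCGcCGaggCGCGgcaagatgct
WNT5B (chr12:1616806-1617105, plus strand): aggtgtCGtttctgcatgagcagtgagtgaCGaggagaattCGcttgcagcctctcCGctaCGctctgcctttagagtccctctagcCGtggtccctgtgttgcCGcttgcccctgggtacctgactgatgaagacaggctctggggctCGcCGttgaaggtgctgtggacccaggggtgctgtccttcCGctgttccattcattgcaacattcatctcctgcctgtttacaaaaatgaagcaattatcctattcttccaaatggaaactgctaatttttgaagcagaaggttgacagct
LEF1 (chr4:108166252-108166551, minus strand): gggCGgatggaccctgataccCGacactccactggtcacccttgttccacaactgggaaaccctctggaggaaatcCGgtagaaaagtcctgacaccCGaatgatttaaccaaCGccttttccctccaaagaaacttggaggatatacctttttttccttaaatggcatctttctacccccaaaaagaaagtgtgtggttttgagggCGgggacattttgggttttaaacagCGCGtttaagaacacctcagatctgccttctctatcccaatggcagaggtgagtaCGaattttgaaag

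WNT9A held 53 CpGs in its window, WNT7A 40, WNT6 37 and WNT10A 30, whereas the WNT5B window shown held 10 and that of LEF1 9. The second annotated start of WNT5B held 7. Over all 35116 promoter windows of this length the median was 14, and over the 28 windows of the 22 tested members with an entry it was 28.5, with a range of 3 to 53. FZD4, which was called higher, held 40, and LRP5, which was not called, held 52. WNT7B, FZD7, FZD3, DKK3 and AXIN2, also called in the pooled comparison, had no window among the 28. Whether CpG number goes with direction was not tested. The TCF/LEF letters CTTTGAT, searched on both strands, were in 0 of the 28 member windows and in 2.62% of all windows. The E-box CACCTG, a sequence bound by SNAIL and ZEB factors, also searched on both strands, was in 7 of the 28 member windows (25.0%), of AXIN1, FZD5, TCF7, WNT2B, WNT5A and WNT7A, and in 20.6% of all windows. The windows follow annotated starts, and which start OVCA433 cells use was not tested. The WNT10A window, both WNT5B windows and the LEF1 window lie inside the gene spans given with the counts. The outermost starts of these 3 genes were therefore not covered.

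Among the ligands, WNT7B, a beta-catenin-activating ligand of epithelia, had the highest level in control cells. Its CPM was 117, 132 and 152 in control libraries A, B and C, 39.0, 35.2 and 39.8 with shRNA #1, and 36.8, 48.1 and 47.7 with shRNA #3. Every knockdown library lay below every control library, and the log2 fold change was -1.81 ± 0.13 (SE) with shRNA #1 and -1.60 ± 0.13 with shRNA #3 (edgeR adjusted p = 1.42e-07 and 4.74e-07). Fewer cells with the transcript and less transcript per cell cannot be told apart in these bulk libraries.

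WNT10A, a ligand of skin and tooth development, went from 18.1, 34.9 and 39.9 CPM in control libraries to 0 in every shRNA #1 library and to 0.118, 0.0549 and 0 with shRNA #3. Its counts summed to 1909 over the control libraries, 0 with shRNA #1 and 3 with shRNA #3. With a floor of 3 counts over the group, WNT10A was at least 664-fold lower with shRNA #1. It was 588-fold lower with shRNA #3, with an exact 95% binomial interval of 201 to 2852 that covers counting error only, as do all intervals on counts here. The pooled edgeR adjusted p was 1.22e-08, a description only, since WNT10A entered the test through its control level alone. The fitted log2 fold changes of this gene depend on the prior count.

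WNT7A, best known from limb patterning and the female reproductive tract, was at 17.1, 16.9 and 19.6 CPM in control libraries. It was at 0.280, 0.0509 and 0.214 CPM with shRNA #1 and at 0.118, 0 and 0.138 with shRNA #3, so that knockdown libraries held a trace of the control level. The summed counts were 1103, 12 and 5. That is a fall of 96.0-fold with shRNA #1 (interval 54.7 to 186) and of 204-fold with shRNA #3 (interval 87.0 to 629). The edgeR adjusted p of 4.92e-09 and 5.13e-09 are descriptions, as WNT7A too entered the test through its control level alone.

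WNT6, the neighbour of WNT10A and an epithelial ligand, was at 2.47, 4.23 and 7.31 CPM in control libraries, 0.0467, 0.0509 and 0.0429 with shRNA #1 and 0, 0.0549 and 0.184 with shRNA #3. Its counts summed to 289, 3 and 5. The fall was 101-fold (interval 34.1 to 491) with shRNA #1 and 53.4-fold (interval 22.6 to 166) with shRNA #3. The edgeR adjusted p of 4.08e-06 and 8.33e-06 are descriptions for the same reason as with WNT10A. Control library A was the lowest control for both neighbours. WNT9A, a ligand of joint and skeletal development, fell less steeply, from 12.8, 15.6 and 13.4 CPM in control libraries to 3.22, 2.80 and 3.73 with shRNA #1 and 2.77, 1.98 and 2.16 with shRNA #3. The groups did not overlap, and its log2 fold change was -2.10 ± 0.18 and -2.60 ± 0.19 (edgeR adjusted p = 7.69e-07 and 1.66e-07).

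WNT5B was the ligand called higher with both hairpins. It was at 10.4, 10.4 and 13.0 CPM in control libraries, 49.8, 46.8 and 64.3 with shRNA #1, and 39.6, 35.6 and 38.5 with shRNA #3. No library of one group reached the values of another. The log2 fold change was 2.26 ± 0.14 with shRNA #1 and 1.75 ± 0.14 with shRNA #3 (edgeR adjusted p = 4.14e-08 and 5.05e-07), and shRNA #3 minus shRNA #1 gave -0.50 ± 0.13 (edgeR adjusted p = 0.0252), short of the fold threshold. FBXL14, which overlaps WNT5B on the opposite strand, held 540 to 846 counts a library, and in these non-directional libraries reads from the shared stretch cannot be assigned by strand.

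WNT5A, the close relative of WNT5B, moved in opposite directions. It was at 0.968, 1.29 and 1.24 CPM in control libraries, 5.19, 10.5 and 11.0 with shRNA #1, and 0.235, 0.274 and 0.184 with shRNA #3. Thus all shRNA #1 libraries lay above control and all shRNA #3 libraries below it. The log2 fold change was 2.92 ± 0.30 with shRNA #1 (edgeR adjusted p = 4.50e-06) and -2.32 ± 0.47 with shRNA #3 (edgeR adjusted p = 0.00153). The difference between hairpins was -5.24 ± 0.39 (edgeR adjusted p = 2.95e-06), with 573 counts over the shRNA #1 libraries and 13 over the shRNA #3 libraries, a 39.0-fold difference (interval 22.6 to 73.7). The pooled comparison takes both hairpins as 1 arm, with a mean of 4.56 CPM against 1.17 in control libraries. It gave 1.97 ± 1.17 (edgeR adjusted p = 0.226). That value is set by the shRNA #1 libraries (mean 8.88 CPM, against 0.231 with shRNA #3) and is not the average of the 2 opposite changes. The antisense gene WNT5A-AS1 held 0 to 19 counts a library.

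The other 3 ligands tested kept within 2-fold of control. WNT3, a beta-catenin-activating ligand, was at 19.7 ± 1.77 CPM in control libraries, 27.7 ± 1.24 with shRNA #1 and 32.5 ± 3.58 with shRNA #3. Its pooled log2 fold change of 0.61 ± 0.12 had an edgeR adjusted p of 0.00185 and lay below the fold threshold. WNT10B, at 4.14 ± 0.704 CPM in control libraries, changed by 0.03 ± 0.21, and WNT2B, at 1.17 ± 0.237 CPM, by 0.11 ± 0.29 (pooled log2, edgeR adjusted p = 0.939 and 0.805).

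Counted per kilobase of exon, so that genes can be set side by side, the make-up of the ligand transcripts shifted. In control libraries WNT7B made up 48.1 ± 2.19% of the summed level of the 19 ligands, WNT10A 16.0 ± 3.86%, WNT3 8.33 ± 1.08%, WNT7A 7.15 ± 0.889%, WNT9A 6.46 ± 0.986%, WNT6 4.78 ± 1.82% and WNT5B 4.75 ± 0.490% (SD, n = 3). Among the last 5 of these, the ranges of adjacent genes overlapped. With shRNA #1 the order was WNT5B at 40.8 ± 2.87%, WNT7B at 24.9 ± 1.42% and WNT3 at 21.2 ± 1.92%. With shRNA #3, WNT5B at 32.1 ± 3.92% and WNT7B at 31.7 ± 2.61% were within their spread, and WNT3 followed at 27.2 ± 1.30%. The summed ligand level itself was 55.2 ± 8.94 CPM per kb in control libraries, 30.4 ± 3.15 with shRNA #1 and 27.5 ± 1.91 with shRNA #3, and no knockdown library reached the lowest control value of 45.8.

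**Figure D2:**
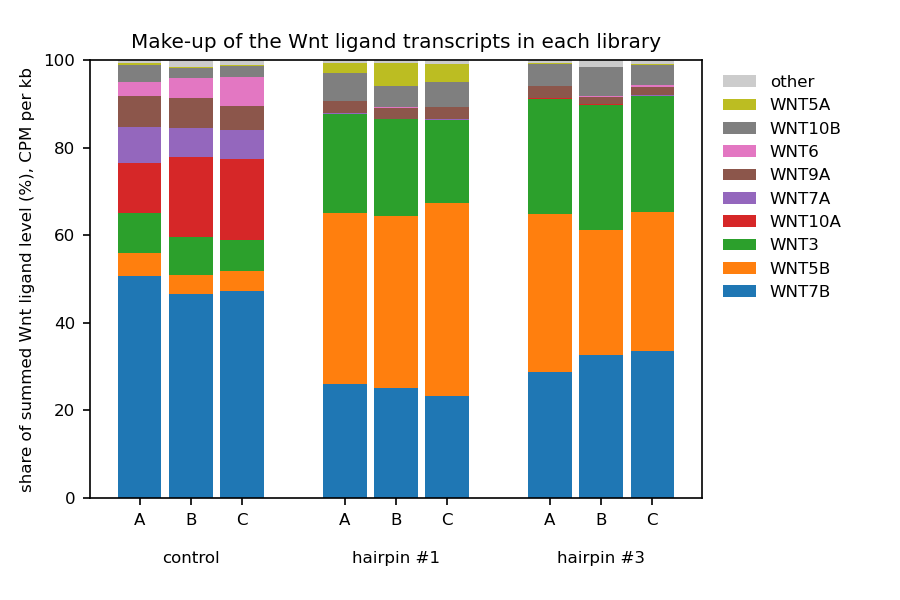
Share of the summed Wnt ligand level (CPM per kb, in percent) taken by each ligand in each of the 9 libraries; ligands under 2% in every library are drawn as other. WNT7B and WNT10A fill most of the control bars, with smaller parts of WNT3, WNT7A, WNT9A, WNT6 and WNT5B, and WNT5B, WNT7B and WNT3 fill most of the knockdown bars.

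The 9 ligands below the minimum were sparse in all groups. WNT16 summed to 39 counts over the control libraries, 12 with shRNA #1 and 11 with shRNA #3, which is 3.39-fold (interval 1.74 to 7.12) and 3.27-fold (interval 1.64 to 7.09) lower. Its shRNA #3 counts were 0, 8 and 3 in libraries A, B and C. Library B, at 0.439 CPM, overlapped with control library A at 0.436. WNT4, a ligand of ovary and Müllerian duct development, summed to 38, 7 and 11 counts, but 25 of its 38 control counts came from library C. WNT8B held 13, 0 and 1 counts, WNT11 10, 0 and 3, and WNT3A 8, 12 and 7. WNT2 and WNT9B had 1 count each, and WNT1 and WNT8A had 0 in every library, where a count of 0 over a group allows up to 3. Of the other neighbouring ligand pairs, WNT3 with WNT9B, WNT9A with WNT3A, and WNT10B with WNT1, each had 1 partner below the minimum.

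Among the Frizzled receptors, the 7-pass surface receptors for Wnt, FZD2 held the highest level in all groups, with 61.7 ± 1.74% of the summed Frizzled level per kilobase in control libraries, 67.0 ± 1.48% with shRNA #1 and 61.8 ± 2.11% with shRNA #3. FZD7 came next in control cells at 22.8 CPM per kb. The sum over all 10 receptors was 122 ± 6.71 CPM per kb in control libraries, 108 ± 5.74 with shRNA #1 and 83.2 ± 4.53 with shRNA #3.

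FZD7, a receptor linked to stem cell and tumour growth, was at 79.7, 91.1 and 93.4 CPM in control libraries, 48.4, 51.7 and 48.3 with shRNA #1, and 34.4, 30.7 and 31.9 with shRNA #3. The 3 groups did not overlap. Its log2 fold change was -0.83 ± 0.10 with shRNA #1, under the fold threshold, and -1.45 ± 0.10 with shRNA #3 (edgeR adjusted p = 1.44e-05 and 1.00e-07), and shRNA #3 lay below shRNA #1 with a log2 difference of -0.61 ± 0.10 (edgeR adjusted p = 0.00121). FZD3, a receptor of the planar polarity branch, fell from 33.2, 26.3 and 24.9 CPM to 9.49, 7.12 and 4.29 with shRNA #1 and 11.5, 9.27 and 8.70 with shRNA #3, again with no overlap with control. Its log2 fold change was -2.02 ± 0.23 and -1.52 ± 0.23 (edgeR adjusted p = 1.28e-05 and 0.000142). The median log2 fold change of the 50 tested genes nearest to FZD3 on its chromosome was -0.35 and -0.22 in the same order.

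FZD4, known as a receptor in retinal blood vessel growth, rose from 6.30, 6.62 and 6.74 CPM in control libraries to 13.6, 16.6 and 16.4 with shRNA #1, and was at 12.3, 11.4 and 13.4 with shRNA #3. Knockdown libraries lay above all controls, with a pooled log2 fold change of 1.09 ± 0.15 (edgeR adjusted p = 0.00015). With shRNA #3 alone the change of 0.92 ± 0.14 was under the fold threshold (edgeR adjusted p = 0.000152). FZD4 overlaps PRSS23 on the opposite strand, a gene with 3447 to 9972 counts a library, so that part of its reads cannot be assigned. FZD8 was at 1.21, 1.74 and 2.05 CPM in control libraries, 2.57, 1.32 and 2.87 with shRNA #1, and 0.824, 0.933 and 0.921 with shRNA #3. It overlapped with control for shRNA #1 but not for shRNA #3, and was called only between the hairpins (shRNA #3 minus #1, log2 difference -1.34 ± 0.34, edgeR adjusted p = 0.0221). That call was lost when any shRNA #3 library, or shRNA #1 library A or C, was left out, with edgeR adjusted p of 0.0511 to 0.0936.

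The other 4 Frizzled receptors tested changed by less than 2-fold. FZD2, at 160 ± 12.9 CPM in control libraries, was lower with shRNA #3 by a log2 fold change of -0.56 ± 0.10 (edgeR adjusted p = 0.000608), while FZD1, at 13.5 ± 1.48 CPM, was higher with shRNA #3 by 0.76 ± 0.12 (edgeR adjusted p = 0.000225). FZD5, at 27.2 ± 1.36 CPM, changed by -0.46 ± 0.13 in the pooled comparison (edgeR adjusted p = 0.017), and FZD6 was at 59.3 ± 4.32, 59.4 ± 3.52 and 59.2 ± 6.22 CPM in the 3 groups. FZD9 held 16, 4 and 9 counts and FZD10 2, 0 and 0.

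None of the 4 co-receptors tested passed the fold threshold. LRP5, which joins Frizzled in the beta-catenin branch, was at 168 ± 15.5 CPM in control libraries, 119 ± 8.84 with shRNA #1 and 97.0 ± 5.90 with shRNA #3, a pooled log2 fold change of -0.64 ± 0.11 (edgeR adjusted p = 0.000825) beside a median of -0.43 over the 50 tested genes nearest to it. LRP6, its partner in the same role, was at 53.3 ± 5.38 CPM in control libraries and changed by 0.24 ± 0.12 (edgeR adjusted p = 0.147). RYK and ROR1 serve as receptors for WNT5A-type signals. RYK changed by -0.25 ± 0.08 from 117 ± 5.44 CPM, and ROR1 by 0.29 ± 0.22 from 67.5 ± 17.3 CPM (pooled log2, edgeR adjusted p = 0.0301 and 0.344). ROR2, the other ROR receptor, was below the minimum with 1 count over the control libraries, 26 with shRNA #1 (10, 7 and 9) and 4 with shRNA #3, and its pooled level was 15.2-fold higher with an interval of 2.53 to 622.

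**Figure D3:**
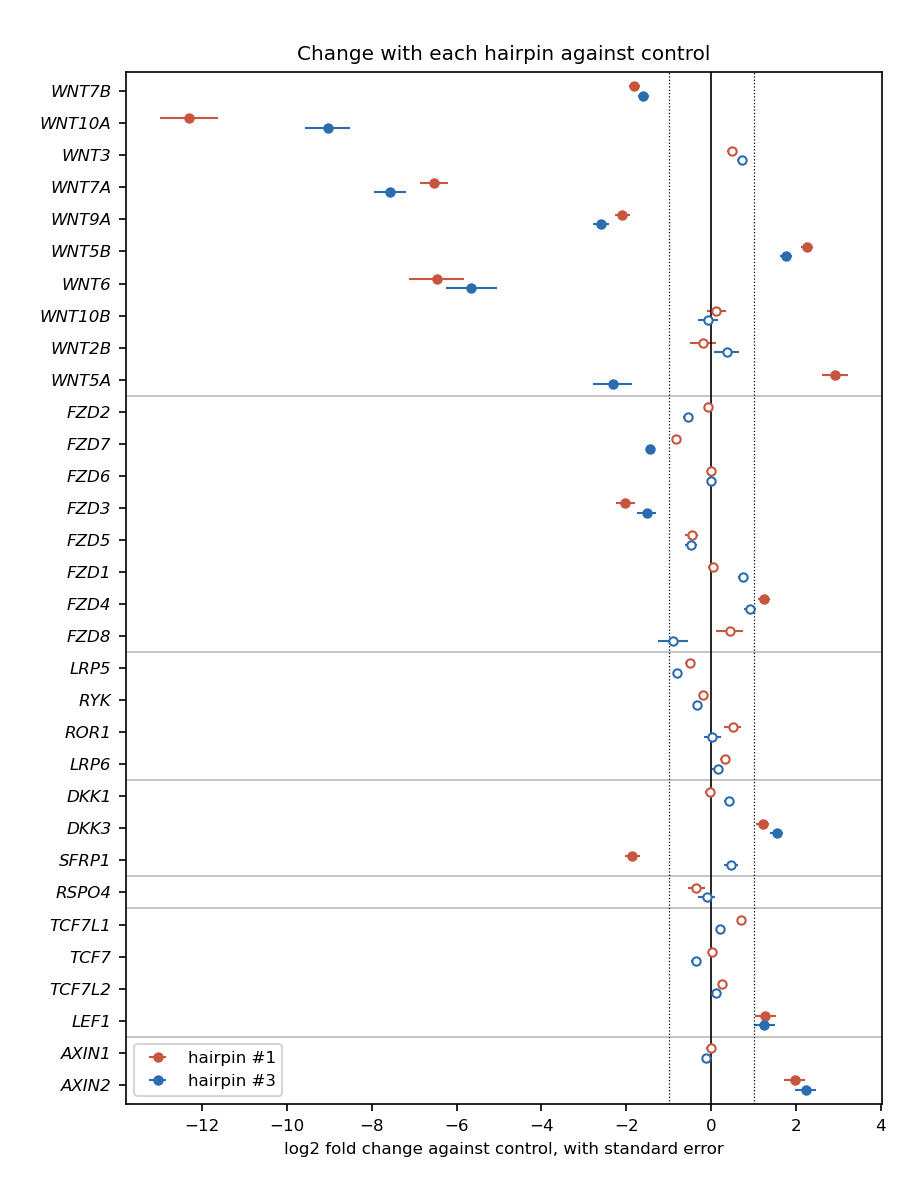
Log2 fold change against control with shRNA #1 (red) and shRNA #3 (blue) for the 32 tested members, with standard errors; filled points passed both thresholds, dotted lines mark 2-fold, and grey lines part the roles. The fitted values of WNT10A, WNT7A and WNT6 at the left rest on few knockdown counts, and WNT5A and SFRP1 lie on opposite sides of 0 with the hairpins.

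The secreted antagonists were led by DKK1, a DKK protein that blocks LRP5 and LRP6, with 80.2 ± 1.86% of the summed antagonist level per kilobase in control libraries, 68.3 ± 2.42% with shRNA #1 and 67.7 ± 2.18% with shRNA #3. DKK1 was at 124 ± 2.64 CPM in control libraries, 122 ± 14.1 with shRNA #1 and 166 ± 26.3 with shRNA #3, and its log2 fold change of 0.43 ± 0.12 with shRNA #3 (edgeR adjusted p = 0.0145) was under the fold threshold. DKK3, the divergent member of the DKK family, rose with both hairpins. It was at 43.4, 56.6 and 61.8 CPM in control libraries, 104, 136 and 135 with shRNA #1, and 134, 162 and 178 with shRNA #3. All knockdown libraries were above all controls, and the log2 fold change was 1.21 ± 0.15 and 1.55 ± 0.15 (edgeR adjusted p = 3.11e-05 and 3.80e-06).

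SFRP1, a secreted decoy with a Frizzled-like domain, separated the hairpins. Its CPM was 15.9, 16.9 and 13.1 in control libraries, 4.21, 4.93 and 3.60 with shRNA #1, and 17.7, 25.5 and 20.1 with shRNA #3. It was below control in every shRNA #1 library and above it in every shRNA #3 library. The log2 fold change was -1.85 ± 0.18 with shRNA #1 (edgeR adjusted p = 2.66e-06) and 0.46 ± 0.16 with shRNA #3 (edgeR adjusted p = 0.0428, under the fold threshold), and the difference of 2.31 ± 0.18 between hairpins had an edgeR adjusted p of 4.35e-06. The pooled comparison gave -0.28 ± 0.56 (edgeR adjusted p = 0.743). The summed antagonist level was 70.0 ± 2.34 CPM per kb in control libraries, 80.9 ± 9.19 with shRNA #1 and 111 ± 16.0 with shRNA #3. Within it, DKK3 was at 10.7, 24.7 and 31.3 CPM per kb in the same order, DKK1 at 56.1, 55.2 and 75.3, and SFRP1 at 3.22, 0.892 and 4.43. With shRNA #1, only DKK3 of these was above its control level.

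Of the antagonists below the minimum, DKK2 summed to 9 counts in control libraries, 7 with shRNA #1 and 41 with shRNA #3, where libraries B and C held 17 and 19 and library A 5, a 4.93-fold higher level than control (interval 2.36 to 11.5). SFRP2 held 3 counts and SFRP4 1, each with shRNA #3, and DKK4, SFRP5 and WIF1 were at 0 in every library. RSPO4 was the one R-spondin tested, at 8.58 ± 0.897 CPM in control libraries with a pooled log2 fold change of -0.22 ± 0.18 (edgeR adjusted p = 0.383). RSPO3 held 2 counts over the control libraries, 11 with shRNA #1 and 26 with shRNA #3, 9.40-fold higher when pooled (interval 2.43 to 80.5). RSPO2 had 1 count and RSPO1 had 0.

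Of the nuclear factors of the pathway, LEF1 rose and the other 3 TCF/LEF genes stayed within 2-fold. LEF1 was at 3.39, 2.49 and 2.29 CPM in control libraries, 7.10, 5.80 and 6.95 with shRNA #1, and 8.53, 4.39 and 6.67 with shRNA #3. The lowest knockdown library was above the highest control, with log2 fold changes of 1.28 ± 0.25 and 1.26 ± 0.25 (edgeR adjusted p = 0.00103 and 0.00133). TCF7L1, often a repressor of Wnt target genes, had the highest level of the 4 per kilobase. It was at 52.7 ± 2.34 CPM in control libraries, 85.9 ± 9.04 with shRNA #1 and 61.0 ± 1.21 with shRNA #3, with a log2 fold change of 0.70 ± 0.10 with shRNA #1 (edgeR adjusted p = 6.81e-05). TCF7, which overlaps the abundant SKP1 on the opposite strand, changed by -0.15 ± 0.14 and TCF7L2 by 0.20 ± 0.10 (pooled log2, edgeR adjusted p = 0.454 and 0.177).

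AXIN2, a scaffold of the destruction complex and a widely used beta-catenin target gene, rose with both hairpins. It was at 0.872, 1.09 and 1.53 CPM in control libraries, 4.67, 3.92 and 5.14 with shRNA #1, and 6.36, 4.50 and 5.62 with shRNA #3. No knockdown library came near the control range, and the log2 fold change was 1.97 ± 0.25 and 2.23 ± 0.25 (edgeR adjusted p = 3.20e-05 and 1.16e-05). AXIN1, which shares the scaffold role, was at 51.4 ± 3.48 CPM in control libraries and changed by -0.06 ± 0.09 (pooled log2, edgeR adjusted p = 0.638).

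**Figure D4:**
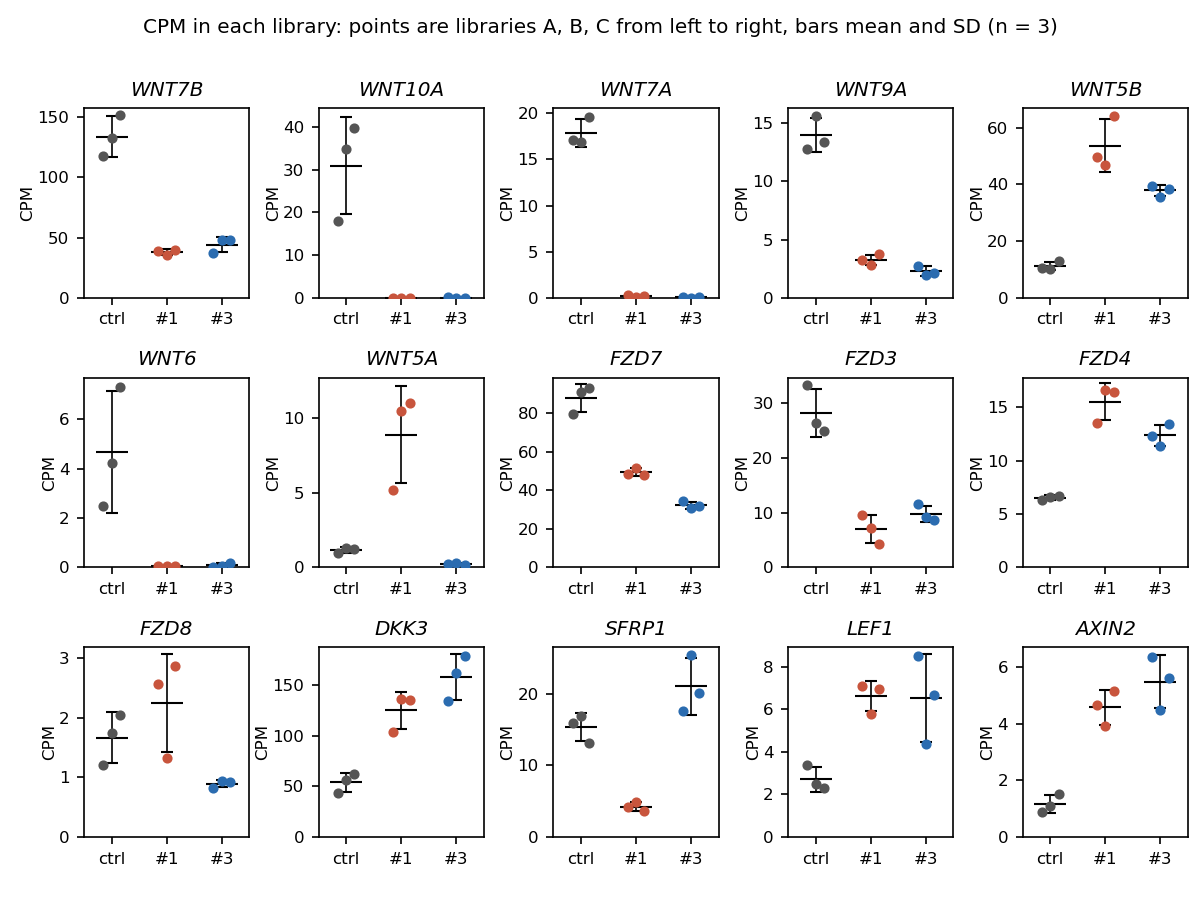
CPM in every library for the 15 members called in at least 1 comparison, with the mean and SD of each group (n = 3; ctrl, control vector; #1 and #3, the hairpins); each panel has its own scale from 0. WNT7B, WNT10A, WNT7A, WNT9A, WNT6 and FZD3 are low with both hairpins, WNT5B, FZD4, DKK3, LEF1 and AXIN2 are high with both, and WNT5A and SFRP1 part the hairpins.

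The further lists of pathway genes held 131 genes that are not members, of which 106 were tested in the pooled comparison, and 16 of these (15.1%) were called higher and 9 (8.49%) lower, beside 7.26% and 7.4% of all tested genes. The lower share was near that of all genes. The lists were made with earlier results of these data known, and their counts are descriptions. In ligand maturation and export, 1 of 3 tested genes was called, TRABD2A, a Wnt-cleaving protease that rose from 1.16 ± 0.546 CPM to 13.7 ± 0.297 with shRNA #1 and 14.9 ± 1.73 with shRNA #3. WLS, which carries Wnt to the surface, was at 112 ± 0.505 CPM in control libraries with a pooled log2 fold change of -0.42, and PORCN, which attaches the lipid, at 9.90 ± 1.60 CPM with 0.63, both under the fold threshold. Neither of the 2 tested R-spondin receptors and Frizzled ubiquitin ligases was called.

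Among 12 tested extracellular regulators, 3 (25%) were higher and 1 (8.33%) lower, beside 7.26% and 7.4% of all genes. GPC4, a glypican, fell from 19.1 ± 1.62 CPM to 0.627 ± 0.141 with shRNA #1 and 0.301 ± 0.0449 with shRNA #3. RECK and ADGRA2, which together help WNT7A and WNT7B to signal, rose, RECK from 12.9 ± 1.34 CPM to 42.9 ± 4.50 and 37.6 ± 0.870, and ADGRA2 from 0.858 ± 0.0854 CPM to 8.07 ± 1.16 and 7.33 ± 1.56. Another glypican, GPC6, was at 0 in all control libraries, 5.04 ± 0.806 CPM with shRNA #1 and 0.0366 ± 0.0634 with shRNA #3, and its pooled call (edgeR adjusted p = 0.0499) was lost in 10 of 20 alternatives.

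Inside the cell, 1 of 24 tested genes of the destruction complex and its regulators was called higher (4.17%, below the 7.26% of all genes), DACT3, with a pooled log2 fold change of 1.15. CTNNB1, the beta-catenin gene, was at 243 ± 14.7 CPM in control libraries, 298 ± 17.5 with shRNA #1 and 296 ± 30.3 with shRNA #3. Of 21 nuclear cofactors tested, 2 (9.52%) were higher and 3 (14.3%) lower, beside 7.26% and 7.4% of all genes. Of the Groucho-type corepressors among them, TLE2 went from 52.4 ± 8.76 CPM to 5.60 ± 0.838 and 5.53 ± 1.02, and TLE4 from 31.9 ± 2.45 CPM to 115 ± 8.89 and 133 ± 6.27. KLF4 and TBL1X changed by -2.92 and 1.28 (pooled log2).

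In the planar polarity and calcium branch, 4 of 23 tested genes (17.4%) rose and 1 (4.35%) fell, beside 7.26% and 7.4% of all genes. The formin DAAM2 rose from 0.404 ± 0.105 CPM to 5.13 ± 1.08 and 4.06 ± 0.382, phospholipase PLCB4 from 45.2 ± 3.74 to 197 ± 10.1 and 222 ± 12.0, and protein kinase PRKCA from 94.6 ± 9.82 to 321 ± 32.7 and 304 ± 10.9. PRICKLE1 changed by 1.28 (pooled log2, edgeR adjusted p = 0.0167), a call lost without control library B or C. Of 26 tested beta-catenin target genes, a list that holds the members AXIN2, LEF1, TCF7 and DKK1, 7 (26.9%) were higher and 4 (15.4%) lower, beside 7.26% and 7.4% of all genes, with AXIN2 and LEF1 among the 7. Besides AXIN2, the named genes were TCF4, an E-box-binding factor, with a pooled log2 fold change of 2.22, and the protease gene MMP7 and the pigment cell factor MITF, with -3.84 and -2.85.

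**Figure D5:**
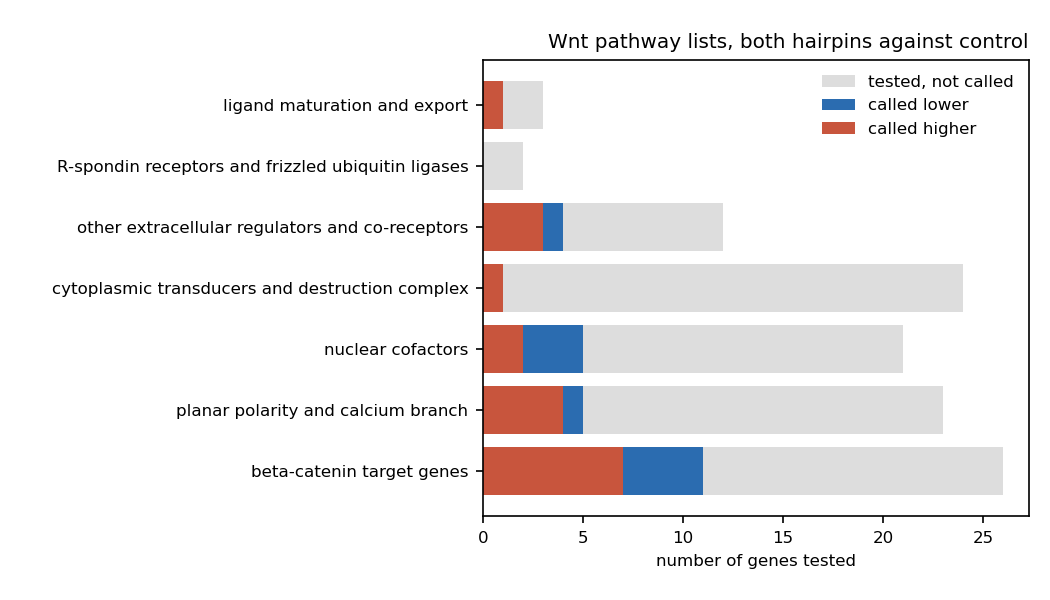
Number of tested genes in each of the 7 pathway lists (bars), with those called higher (red) and lower (blue) with both hairpins pooled against control; genes may stand in more than 1 list, and the beta-catenin list holds 4 members. The beta-catenin bar holds 7 higher and 4 lower of 26 tested, AXIN2 and LEF1 among the 7; of all tested genes 7.26% were called higher and 7.4% lower.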

How the data were processed

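The authors deposited raw counts per gene for the 9 poly(A)-selected, non-directional libraries. Per the labels, the submitters' processing notes name HISAT2 2.0.5, featureCounts 1.5.0-p3 and hg38. The members and lists were chosen with earlier results of these data known.

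Counts were tested with edgeR 4.0.16 in R 4.3.3 (TMM scaling, filterByExpr, glmQLFit and glmQLFTest, Benjamini-Hochberg adjustment). One fit held both hairpins as 1 arm, after the study's grouping, and another held the 3 groups for each hairpin against control and for the difference between hairpins. CPM are the deposited counts over TMM-scaled library totals, and CPM per kb divide by the exon length given with the counts. Standard errors are the log2 fold change over the square root of F. Promoters came from RefSeq (GRCh38.p14), which held 38 of the 53 genes. Members called in a comparison were given in full, and up to 4 called genes of each pathway list, by pooled fold change. Alternatives were DESeq2 1.42.0, other scalings, filters and thresholds, a replicate block, and leaving out each library. The scripts were tested on simulated data.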

Additional observations from a re-analysis of the deposited data

Results flagged for a closer look

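For 3 members, the difference of shRNA #3 minus shRNA #1, tested in the same model, passed both thresholds. FZD1, FZD2, FZD7, TCF7L1, TCF7, DKK1 and WNT5B also had an edgeR adjusted p below 0.05 for it (0.00121 to 0.0427). Their log2 differences, from -0.61 (FZD7) to 0.72 (FZD1), were under the fold threshold. An effect of MPZL3 loss and an effect of one hairpin itself cannot be told apart for any of these members. WNT5A had a log2 difference of -5.24, since it was above control in all 3 shRNA #1 libraries and below it in all 3 shRNA #3 libraries. SFRP1 had a log2 difference of 2.31, with all shRNA #1 libraries below control and all shRNA #3 libraries above it. FZD8 had a log2 difference of -1.34, on levels of at most 2.87 CPM. For MPZL3 itself no difference between the hairpins was called, with a log2 difference of -0.25 ± 0.26 (edgeR adjusted p = 0.614).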

How the results depend on the processing

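In the comparisons where a member had an edgeR adjusted p below 0.05, it did not change direction in any alternative run for it, and no named pathway gene did. Relative to their 50 nearest genes, the fold changes of some members without a call in that comparison changed sign, namely WNT10B, FZD6, SFRP1 and TCF7 in the pooled comparison, FZD1 with shRNA #1, FZD6 with shRNA #3, and FZD5 and RSPO4 between the hairpins. With a replicate block, 12, 13, 12 and 3 members were called in the pooled, shRNA #1, shRNA #3 and between-hairpin comparisons and 24 pathway genes, against the same member counts and 25 pathway genes without it. The replicate letters gave correlations of deviations from 0.0515 to 0.466 for the same letter and -0.437 to 0.185 for different letters. Replicate A stood apart, with same-letter pairs at 0.401 to 0.466 and pairs with other letters at -0.437 to -0.134. Same-letter pairs of replicate C were at 0.229 to 0.331, above every pair of different letters. Those of replicate B were at 0.0515 to 0.136. Not every same-letter pair was above 0.1, and the main fit did not take the letters as pairing. Without a fold threshold, 22 members were called with shRNA #3, 10 between the hairpins and 50 pathway genes, and with the 2-fold threshold inside the test 13 pathway genes were called. That test took the calls of FZD4, FZD7 and LEF1 in the pooled comparison, of FZD4, LEF1 and DKK3 with shRNA #1, of LEF1 with shRNA #3 and of FZD8 between the hairpins. Relative to its 50 nearest genes, FZD4 passed the fold threshold with shRNA #3. Without the filter on low counts, 17, 18, 14 and 4 members were called in the same order, the additions being among ROR2, RSPO3, WNT16, WNT4, WNT8B, WNT11 and DKK2. No share of all genes is given at these other settings, and the shares above hold for the main setting alone. The counts here are therefore descriptions. Leaving out 1 library gave 12 to 14 members pooled, 13 to 15 with shRNA #1, 12 to 15 with shRNA #3, 2 to 4 between the hairpins, and 23 to 29 pathway genes. The members gained there were WNT4, WNT16 and DKK2, which then passed the filter, and FZD8 with shRNA #3 when control library A was left out, and the one member lost was FZD8 between the hairpins. Depth limits the 21 members below the minimum, where only large differences were detectable.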
